A study of Bos taurus
Mus musculus with 10 samples.

Results

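Matricellular proteins are secreted into the extracellular matrix but act mainly as signals between matrix and cell rather than as structural fibres. Transcripts of 8 genes of this kind or closely tied to it were followed here in 2 species that shared the same culture wells: the thrombospondins THBS1 and THBS2, SPARC, tenascin C (TNC), periostin (POSTN), fibronectin (FN1), osteopontin (SPP1) and the TGF-beta-induced protein TGFBI. The bovine members were taken by symbol and the mouse members by NCBI gene ID. All 8 were found in each table, among 27590 bovine and 31349 mouse gene IDs, and all 8 passed the filter on low values in each table.

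The wells held wild-type bovine embryonic stem cells of lines 1, 2, 4, 8 and 11, derived from blastocysts of day 7.5. They grew on fibroblasts from CD-1 mouse fetuses at E13.5, whose division had been stopped by mitomycin C for 2 h. All cultures had been kept in mTeSR1 medium with 2.5 µM IWR-1 and penicillin-streptomycin. Serum (FBS, 10%) is also listed for all wells, and the culture step it belongs to is not given here. Each line was divided over 2 wells. From day 0, 1 well stayed in medium with IWR-1 (IWR) and the other was given medium without it (IWRR), and RNA of the whole well was taken on day 1. This gave 5 libraries per medium. IWR-1 inhibits the tankyrases and so stabilises AXIN, which keeps Wnt/beta-catenin signalling low. Whether the feeders of different lines came from separate preparations is not stated, so in the mouse table the spread between lines may be partly technical.

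Thrombospondin 1 binds the receptors CD36, CD47 and integrins, can activate latent TGF-beta and is a well-known target of YAP/TEAD and TGF-beta signalling. Tenascin C, periostin and osteopontin are scarce in most resting tissues and abundant in wounds, tumours and embryonic mesenchyme. Embryonic fibroblasts are a rich source of fibronectin, SPARC and tenascin C, and deposit much of the matrix on which the stem cells sit.

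Depth was 48064953 to 64345738 recovered reads on bovine genes and 17101894 to 35223039 on mouse genes per well. Mouse genes took 21.2% to 42.3% of all reads of a well, and all 5 lines had a lower share after withdrawal (mean change -3.64 percentage points, SD 2.17; exact sign-flip permutation test, p = 0.0625, the smallest that 5 pairs allow). Line 4 stood apart in both media. Of 18 bovine markers of fibroblasts and mesenchyme, 15 were highest in line 4 in both media, and their summed level there was 271248 normalised reads with IWR-1 and 289903 after its removal. In the remaining lines the sum was 72714 to 147271 and 70651 to 147689. The mouse share of reads was also highest in line 4, at 42.3% with IWR-1 against 23.4% to 33.3% in lines 1, 2, 8 and 11. The summed level of 12 pluripotency markers was lowest in line 4, at 104319 with IWR-1 against 121003 to 206374, although NANOG had at least 1199 normalised reads in every well, and POU5F1 and SOX2 more. That sum was lower, and the summed level of 6 markers of simple epithelium higher, after withdrawal in 5 of 5 lines. The fibroblast and mesenchyme sum was higher in 4 of 5. These sums weigh the highest genes most, and single pluripotency markers went both ways. In line 4 DNMT3B went from 34857 normalised reads with IWR-1 to 26968.5 without it, but POU5F1 from 19326 to 21776. CDH1 and EPCAM count in both the pluripotency and the epithelium sum. The part of these shifts in the changes given here was not tested. Outside line 4 the fibroblast markers ranged from FAP, at 0 in every well (19.0 and 12.7 normalised reads in line 4), and DPT, at 0 to 1.01 (2.38 and 4.62 in line 4), to COL1A1 at 6825 to 32660 and VIM at 39381 to 83132. Mouse IDs other than those of the 8 members carry no names here, so the feeders could not be checked against other fibroblast markers.

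THBS1, the thrombospondin of platelets and stressed stroma, rose after IWR-1 withdrawal in both species and by nearly the same amount. In the bovine cells it stood at 2125, 4567, 15442, 4067 and 5208 normalised reads in lines 1, 2, 4, 8 and 11 with IWR-1. Without IWR-1 it stood at 4583, 8866, 23849, 4970 and 9582 in the same order. Every line was higher without IWR-1, yet the media overlapped, because the lines lay further apart than the media. The fitted rise was 1.71-fold, or 0.77 ± 0.10 (SE) as a log2 fold change (limma adjusted p = 0.00858). Line 8 moved least, by 0.29 on the log2 scale, and line 1 most, by 1.11. Line identity accounted for 82.0% of the variation (sum of squares) in log2 bovine THBS1 and the medium for 15.8%. In bulk RNA a change in RNA per cell cannot be told apart from a change in which cells are present.

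In the mouse feeders Thbs1 stood at 9688, 25927, 32912, 26864 and 36258 normalised reads in lines 1, 2, 4, 8 and 11 with IWR-1. Without IWR-1 it reached 16033, 47234, 63085, 32636 and 70322. The feeders under line 1 were lowest in both media and those under line 11 highest. The fitted rise was 1.69-fold, or 0.75 ± 0.10 (SE) as a log2 fold change (limma adjusted p = 0.00149), and line 8 again moved least, by 0.28. The mouse change minus the bovine change averaged -0.02 on the log2 scale (SD 0.25, range -0.38 to 0.31 over 5 lines; exact sign-flip permutation test, p = 0.75). The bovine call was lost without line 1 (limma adjusted p = 0.0566) or line 11 (0.0607), whereas the mouse call was made whichever of the 5 lines was dropped. As mouse Thbs1 gave 73.7% to 90.4% of the THBS1 reads of a well, and no source used here says how reads that fit both genomes were counted, the part of mouse reads in the bovine value was not tested. Bovine reads per 100 mouse reads of THBS1 ranged from 10.6 in line 11 with IWR-1 to 35.7 in line 1 without it.

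SPP1, which encodes the secreted phosphoprotein osteopontin, moved in opposite directions in the stem cells and the feeders. Bovine SPP1 was at 132, 42.0, 632, 229 and 94.2 normalised reads in lines 1, 2, 4, 8 and 11 with IWR-1. It was at 398, 74.0, 807, 764 and 342 without IWR-1. It was higher without IWR-1 in 5 of 5 lines, from 226 ± 237 to 477 ± 307 (SD, n = 5), again with overlap between the media. The fitted rise was 2.40-fold, or 1.27 ± 0.20 (SE) as a log2 fold change (limma adjusted p = 0.0214). The change was smallest in line 4 (0.35), where SPP1 was already highest, and largest in line 11 (1.85). The call ended without line 1, 8 or 11 (limma adjusted p = 0.118, 0.0569 and 0.103) or with no filter on low values (0.0783). With the mouse share of reads in the model the log2 fold change was 0.53 ± 0.37 (SE). That share was lower without IWR-1 in every line, so such a fit separates it from the medium only in part.

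Mouse Spp1 went the other way. It stood at 297350, 237713, 99526, 293982 and 267165 normalised reads in lines 1, 2, 4, 8 and 11 with IWR-1. Without IWR-1 it stood at 202501, 119807, 44468, 253680 and 167409. All 5 lines were lower, from 239147 ± 81663 to 157573 ± 79955 (SD, n = 5), and the feeders under line 4 were the lowest in both media. Mouse Spp1 fell by 0.72 ± 0.14 (SE) on the log2 scale, to 0.608 of its level with IWR-1 (limma adjusted p = 0.0115). The fall was largest under line 4 (-1.16) and smallest under line 8 (-0.21). The call ended without line 4 or 11 (limma adjusted p = 0.0811 and 0.0612) or with no filter on low values (0.0631).

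The mouse change of SPP1 minus the bovine change averaged -1.98 on the log2 scale (SD 0.38, range -2.53 to -1.51) and was negative in 5 of 5 lines. The exact sign-flip permutation test gave p = 0.0625, the smallest that 5 pairs allow, and 0.167 after Benjamini-Hochberg adjustment over the 8 members. Osteopontin reads were almost all counted on the mouse gene: the mouse share was 99.68% to 99.98% with IWR-1 and 99.06% to 99.93% without it. Bovine SPP1 had 40 to 531 recovered reads per well with IWR-1 and 71 to 842 without it, beside 74046 to 372443 on the mouse gene. Per 100 mouse reads the bovine gene had 0.0165 to 0.322 reads with IWR-1 and 0.0721 to 0.944 without it. The bovine count thus rose in wells where the mouse count was lower.

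**Figure D1:**
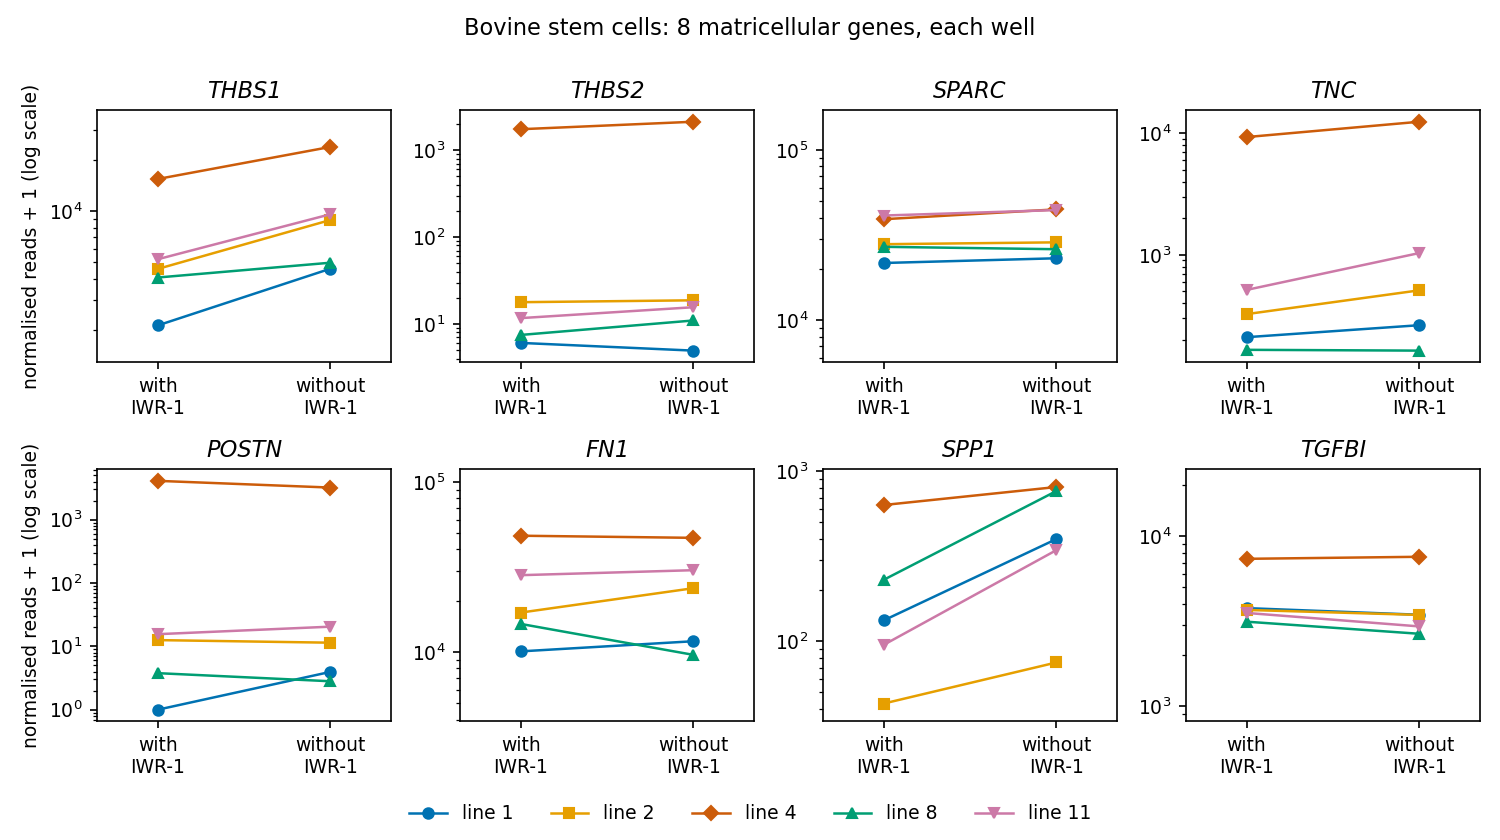
Normalised reads of the 8 bovine genes in each well, plus 1, on log axes whose ranges differ between panels; each colour and marker is 1 stem cell line and joins its well with IWR-1 to its well without it. THBS1 and SPP1 are higher without IWR-1 in all 5 lines, and line 4 lies far above the other lines for THBS2, TNC and POSTN.

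The other thrombospondin of this set, THBS2, behaved unlike THBS1. It encodes a trimeric thrombospondin of connective tissue that limits vessel growth. Bovine THBS2 was at 1736 normalised reads in line 4 with IWR-1, and withdrawal left it at 2117. In the other lines it was at 5.06 to 16.8 with IWR-1 and 3.94 to 17.7 without it, which is 4 to 17 reads. It reached 10 normalised reads, the minimum used for testing, in the wells of lines 2, 4 and 11. Its log2 fold change was 0.21 ± 0.23 (SE; limma adjusted p = 0.88), and 4 of 5 lines were higher without IWR-1. Mouse Thbs2 stood at 32922 to 67114 with IWR-1 and 29508 to 60012 without it, highest under line 8 in both media, with a log2 fold change of -0.07 ± 0.08 (limma adjusted p = 0.765).

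Periostin, a secreted adaptor of collagen fibres that binds integrins, was abundant in line 4 and scarce in bovine lines 1, 2, 8 and 11. In line 4 POSTN stood at 4097 normalised reads with IWR-1 and at 3209 after withdrawal. The other lines had 0 to 14.6 and 1.81 to 19.5. In line 1 with IWR-1 no read was counted on bovine POSTN, beside 26332 reads on mouse Postn in the same library, and without IWR-1 there were 3 beside 33371. Outside line 4 the bovine gene had at most 0.0496 reads per 100 mouse reads, and in line 4 it had 3.74 with IWR-1 and 2.95 without it. The fitted bovine change, 0.29 ± 0.37 (SE; limma adjusted p = 0.897), rests on line 1, where 0 reads became 3, and it was -0.13 without that line.

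Mouse Postn was higher without IWR-1 in 5 of 5 lines, a pattern seen in 7.83% of all tested mouse genes, but was not called. It stood at 29665, 42981, 55519, 25023 and 36694 normalised reads in lines 1, 2, 4, 8 and 11 with IWR-1. The same wells without IWR-1 had 41066, 51124, 56526, 28681 and 39592. The gain ranged from 0.03 under line 4 to 0.47 under line 1, with a mean of 0.21 ± 0.08 (SE; limma adjusted p = 0.209).

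Tenascin C, a hexameric glycoprotein that loosens cell adhesion, was also dominated by line 4 in the bovine table. TNC stood at 209, 324, 9334, 164 and 513 normalised reads in lines 1, 2, 4, 8 and 11 with IWR-1. It stood at 262, 509, 12485, 161 and 1033 without it. The change was upward in 4 of 5 lines and close to 0 in line 8 (-0.02), and the fitted value of 0.48 ± 0.13 (SE) was not called by limma (adjusted p = 0.144). Without line 8 it was 0.60 and was called (limma adjusted p = 0.0465), and DESeq2 on all lines called it too (0.50, adjusted p = 0.00202). It was 0.34 without line 11 (limma adjusted p = 0.51) and 0.14 ± 0.26 (SE) with the mouse share of reads in the model. Mouse Tnc was at 107292 to 190813 with IWR-1 and 112332 to 258210 without it, with lines going both ways from -0.47 to 0.50 and a fitted change of 0.02 ± 0.13 (limma adjusted p = 0.977). The mouse change lay below the bovine change in 5 of 5 lines, by 0.46 on average (SD 0.35; exact sign-flip permutation test, p = 0.0625, or 0.167 adjusted over the 8 members). Outside line 4, bovine TNC reads numbered 0.117 to 0.587 per 100 mouse reads.

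**Figure D2:**
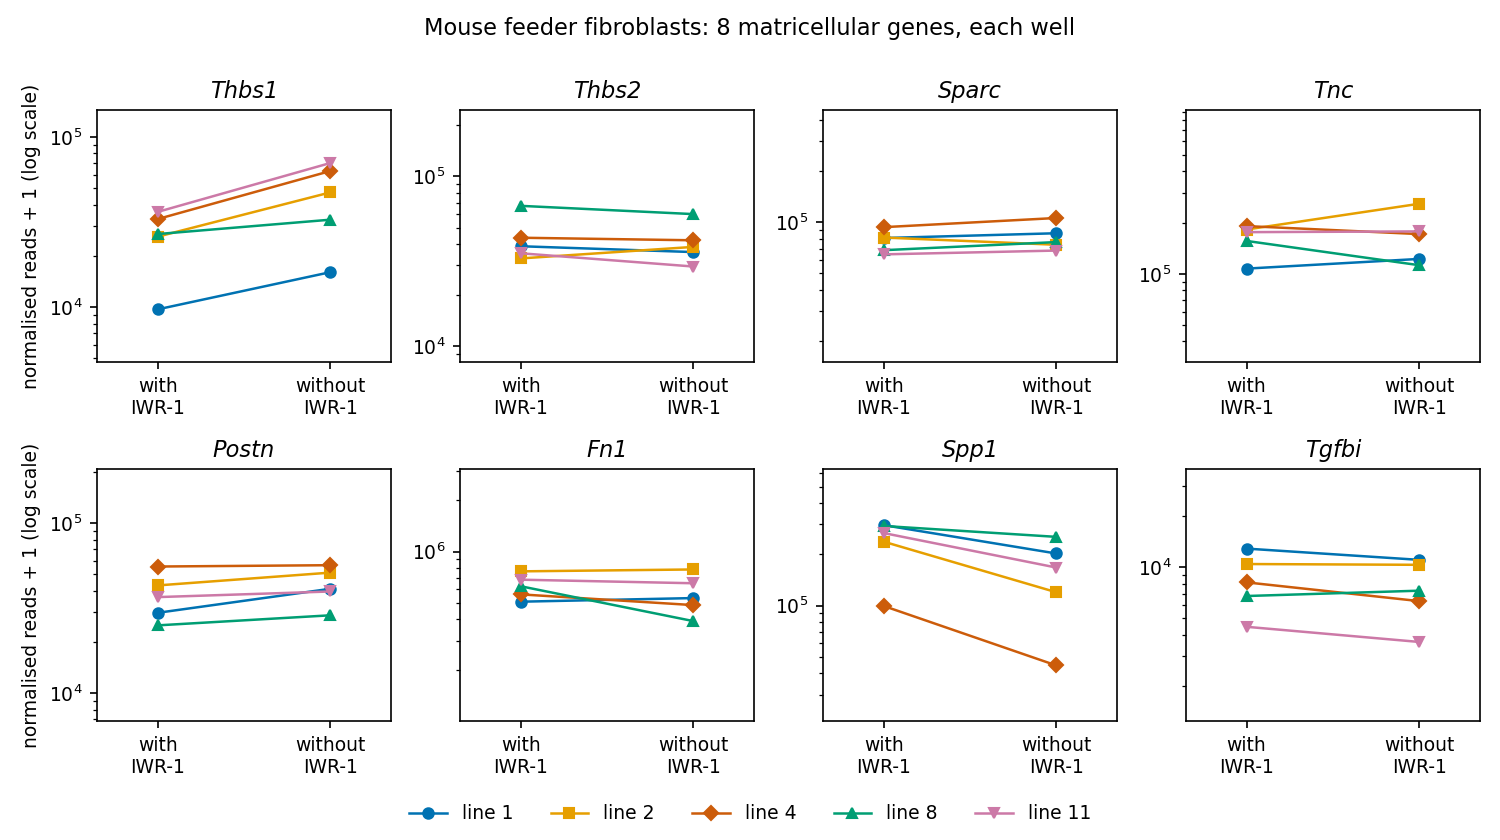
Normalised reads of the 8 mouse genes in each well, plus 1, on log axes whose ranges differ between panels; each colour and marker is the stem cell line grown on those feeders and joins the well with IWR-1 to the well without it. Thbs1 is higher and Spp1 lower without IWR-1 under all 5 lines, and Spp1 is lowest under line 4.

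Fibronectin, the adhesive glycoprotein that cells bind through integrin alpha5 beta1, showed no called change in either species. Bovine FN1 stood at 10066, 17019, 48208, 14601 and 28249 normalised reads in lines 1, 2, 4, 8 and 11 with IWR-1. It stood at 11547, 23681, 46841, 9603 and 30223 without it. The lines went both ways, from -0.60 in line 8 to 0.48 in line 2, and the fitted change was 0.03 ± 0.12 (SE; limma adjusted p = 0.984). Mouse Fn1 alone took 1.83% to 3.52% of all mouse reads of a well. Its level was 507678 to 765663 with IWR-1 and 390348 to 785537 without it, and its fitted change was -0.17 ± 0.15 (limma adjusted p = 0.672). Line 8 was also the line of the largest mouse decrease (-0.68). The mouse gene gave 95.2% to 97.96% of all FN1 reads of a well, so that bovine FN1 had 2.08 to 5.03 reads per 100 mouse reads; the part of mouse reads in it was not tested. The mouse change lay below the bovine change in 5 of 5 lines, by 0.20 on average (SD 0.14; exact sign-flip permutation test, p = 0.0625, or 0.167 adjusted over the 8 members).

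SPARC, a collagen-binding glycoprotein also called osteonectin, differed little between the media. Bovine SPARC ranged from 21646 to 41168 normalised reads with IWR-1 and from 23075 to 44751 without it, with line 11 or line 4 highest and line 1 lowest. Its log2 fold change was 0.08 ± 0.06 (SE; limma adjusted p = 0.802). Mouse Sparc ranged from 64736 to 93561 and from 68150 to 105935, highest under line 4 in both media, with a log2 fold change of 0.07 ± 0.09 (limma adjusted p = 0.766). The difference between the species was -0.003 on average (SD 0.14), and no single line moved by more than 0.19 in the bovine or 0.18 in the mouse table.

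TGFBI, whose product carries an integrin-binding motif and fasciclin domains like those of periostin, was slightly lower without IWR-1 in most lines of both species and was called in neither. Bovine TGFBI stood at 3777, 3686, 7365, 3143 and 3538 normalised reads in lines 1, 2, 4, 8 and 11 with IWR-1. It stood at 3453, 3444, 7570, 2668 and 2948 without it. Line 4, the highest, was the only line that was not lower, and the fitted change was -0.14 ± 0.06 (SE; limma adjusted p = 0.479). Mouse Tgfbi went from 8545 ± 3254 to 7730 ± 3034 (SD, n = 5), lower in 4 of 5 lines, with a log2 fold change of -0.16 ± 0.08 (limma adjusted p = 0.335). The feeders under line 1 were highest and those under line 11 lowest in both media.

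**Figure D3:**
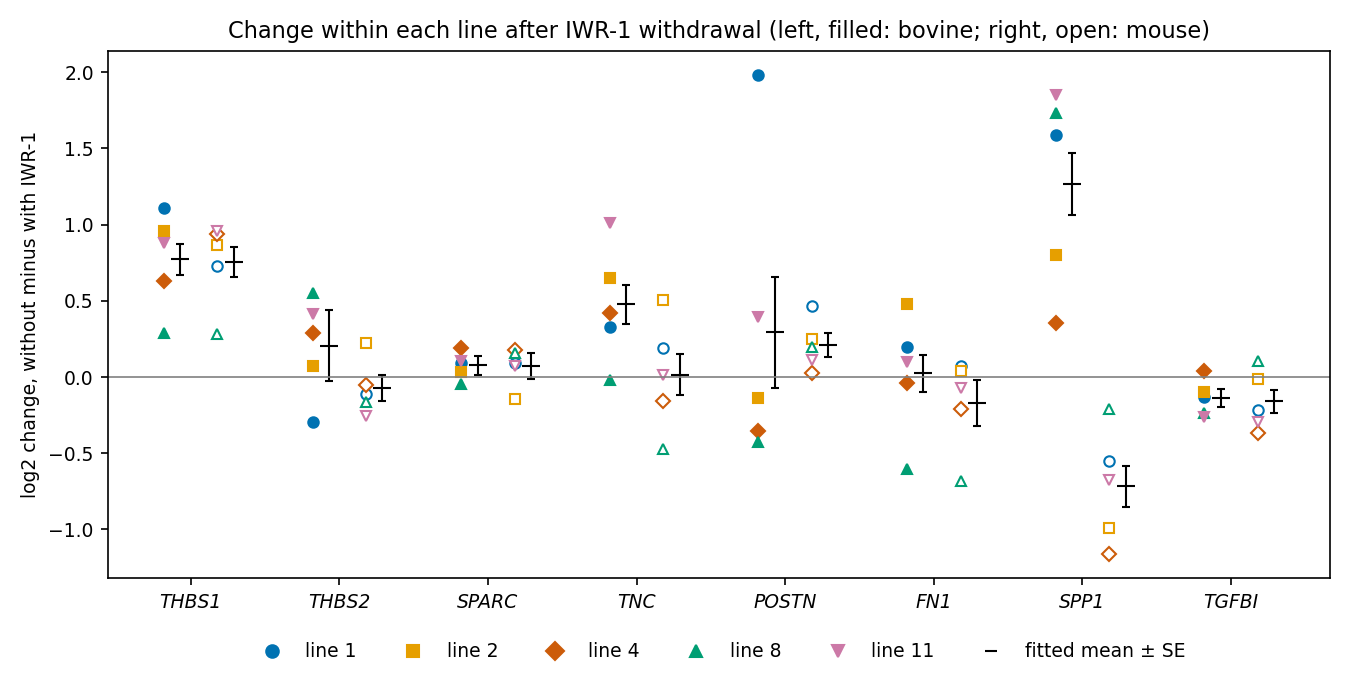
Log2 change without minus with IWR-1 for each gene and line; filled markers on the left are bovine, open markers on the right are mouse, and the black bar beside each set is the limma estimate ± SE. THBS1 lies above 0 in both species, and SPP1 lies above 0 in the bovine and below 0 in the mouse table. Mouse POSTN lies above 0 in 5 of 5 lines and bovine TNC in 4 of 5. The remaining genes also have lines on both sides of 0.

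In all, 2 of 8 bovine members rose and 0 fell, where 0.886% of 18506 tested bovine genes rose and 0.0648% fell. Of the 8 mouse members 1 rose and 1 fell, where 2.14% of 15871 tested mouse genes rose and 2.05% fell. Counted in either direction, 0.951% of bovine and 4.19% of mouse genes were called. Of the bovine members 2 of 8 were higher without IWR-1 in 5 of 5 lines and 0 were lower in 5 of 5, which 6.2% and 4.92% of tested bovine genes were. The bovine members had a median log2 change of 0.25, and all tested bovine genes one of -0.0046. The members were picked with earlier results of these data known, so these counts carry no test. Without line as a block limma called 0 genes in either table, members included (105 bovine and 584 mouse genes had an unadjusted p under 0.05). The same held with the mouse share of reads added to the blocked model (456 and 687 genes). For no member did the 5 wells of 1 medium lie wholly above those of the other, in either table; such a separation was seen in 0.113% of tested bovine and 0.554% of tested mouse genes.

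For every member, line identity took a larger part of the sum of squares than the medium, a measure that favours 5 lines over 2 media. Line identity accounted for 75.8% to 99.7% of the variation in log2 values for the bovine members and for 71.0% to 95.5% for the mouse members. The medium took most for mouse Thbs1 (21.2%), bovine SPP1 (19.9%), mouse Spp1 (18.7%) and bovine THBS1 (15.8%). Line 4 was the highest line in both media for 7 of the 8 bovine members, SPARC with IWR-1 being the exception, against 19.1% of all tested bovine genes. With IWR-1 line 4 exceeded the highest other line 281-fold for POSTN, 103-fold for THBS2, 18.2-fold for TNC, 2.96-fold for THBS1, 2.76-fold for SPP1, 1.95-fold for TGFBI and 1.71-fold for FN1. In the same line 15 of 18 fibroblast and mesenchyme markers were highest, while the 6 markers of simple epithelium were highest in none; the part of such cells, and of the higher mouse share of line 4, in these levels was not tested. The order of the other lines was shared by several members: line 11 came next, then line 2, for THBS1, TNC, POSTN and FN1 in both media. SPP1 had another order, with line 8 second and line 2 lowest in both media.

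The mouse members did not follow this pattern. Of the 8, Sparc and Postn were highest under line 4 in both media and Spp1 was lowest there, where 6.00% of tested mouse genes were highest and 7.62% lowest under line 4. Mouse Spp1 under line 4 had 99526 normalised reads with IWR-1, where the next lowest line had 237713, and 44468 without it, where the next lowest had 119807.

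Most reads of each of the 8 genes were counted on the mouse gene in every well. Mouse genes took 21.2% to 42.3% of all reads of a well, but 55.0% to 75.4% of the TGFBI reads, 60.4% to 82.5% of the SPARC reads and 73.7% to 90.4% of the THBS1 reads. For THBS2, TNC, POSTN, FN1 and SPP1 the mouse share was at least 95.2% in every well. Together the 8 genes made up 5.09% to 6.34% of mouse reads with IWR-1 and 4.51% to 5.93% without it, but 0.0607% to 0.220% and 0.0691% to 0.248% of bovine reads. These shares count reads of the same library and are not set per transcript length. How reads that fit both genomes were counted is not known here, so the shares need not equal the parts by origin.

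After withdrawal the mouse share was lower in 5 of 5 lines for SPARC (mean change -3.60 percentage points, SD 3.41), FN1 (-0.92, SD 0.48), TNC (-0.36, SD 0.51) and SPP1 (-0.27, SD 0.21). Each had p = 0.0625 in the exact sign-flip permutation test, or 0.125 adjusted over the 8 members. The share over all genes was lower in the same wells. With the reads of each species scaled to that species' own total, the mean change became positive for SPARC (0.14) and THBS1 (0.20), neither with an exact sign-flip p under 0.75. On that scale it was -0.17 for FN1, -0.19 for TNC and -0.13 for SPP1. Each of these again had an unadjusted p = 0.0625 in the exact sign-flip permutation test, the smallest that 5 pairs allow. The unscaled share for TGFBI was lower in 4 of 5 lines (-4.10 points, SD 3.66; exact sign-flip permutation test, p = 0.125), and the scaled one changed by -0.44 points (p = 0.75).

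**Figure D4:**
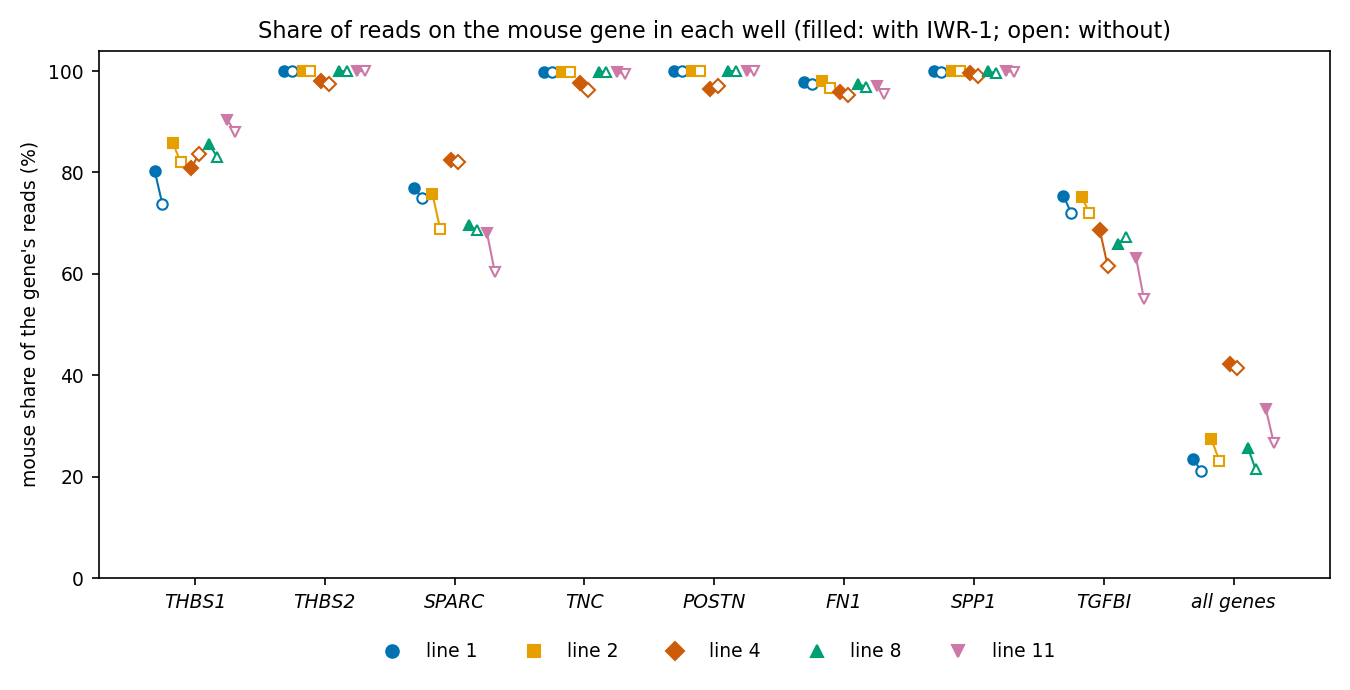
Mouse share of the reads of each gene, in percent of mouse plus bovine reads in the same well, with filled markers for wells with IWR-1 and open markers for wells without it; the last group shows all genes together. The 8 genes lie between 55.0% and 100%, above the 21.2% to 42.3% of all genes.

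The wider set of bovine matricellular and matrix-associated secreted proteins changed in few places. Of 40 listed genes 32 were tested; TNN, CCN4, CCN5, CCN6, VTN, MGP, IBSP and TNFAIP6 were not. Of the 32, 2 rose, 1 fell and 29 did not pass the test; 20 lay above 0 (median log2 change 0.07). Over all tested bovine genes 0.886% rose, 0.0648% fell and 48.4% lay above 0 (median -0.0046). Those that rose, CCN1 (log2 fold change 1.04 ± 0.09 SE) and CCN2 (0.78 ± 0.06), are integrin-binding matricellular proteins and, like THBS1, well-known YAP/TEAD targets. SMOC1, a calcium-binding relative of SPARC found in basement membranes, fell by 0.38 ± 0.07 (limma adjusted p = 0.0314), but was not called once line 1, 4, 8 or 11 was dropped. SPARCL1, the closest relative of SPARC, was lower in 5 of 5 lines (-1.01 ± 0.23) without being called (limma adjusted p = 0.0826). SPARCL1 was at -0.56 ± 0.49 (SE) with the mouse share of reads in the model. Its level was 2557 normalised reads in line 4 with IWR-1 and at most 51.5 in the other lines.

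The remaining thrombospondins showed no called change. THBS3 was at -0.06, THBS4 at 0.13 and COMP, the thrombospondin of cartilage, at -0.01 on the log2 scale. Among relatives of tenascin C, TNR was at -0.14 and TNXB at 0.04.

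The list of receptors of matricellular proteins also held the collagen receptors DDR1 and DDR2. Of its 22 tested genes 2 rose and 0 fell, and 19 lay above 0 (median log2 change 0.17), where 48.4% of all tested bovine genes were positive. ITGA8, the alpha chain of an integrin that binds fibronectin, tenascin C and osteopontin, rose by 0.71 ± 0.10 (SE; limma adjusted p = 0.0134). Its mean over 5 lines was 499 ± 314 (SD) with and 846 ± 621 without IWR-1, in normalised reads. ITGB5, the beta chain of an integrin that binds vitronectin and periostin, rose by 0.67 ± 0.13 (limma adjusted p = 0.0431). The collagen receptor DDR2 (0.57 ± 0.13, limma adjusted p = 0.0746) and the syndecan SDC2 (0.25 ± 0.06, adjusted p = 0.0861) were higher in 5 of 5 lines and were not called. Of the classical thrombospondin receptors, CD47 was at -0.13 and CD36 at 0.38, neither called, the latter with a mean of 12.1 normalised reads with IWR-1. ITGA8 lost its call without line 1 or 11 and ITGB5 without line 1, 8 or 11. With the mouse share of reads in the model the log2 changes of ITGA8, ITGB5 and DDR2 were 0.34 ± 0.20, 0.26 ± 0.25 and 0.09 ± 0.23 (SE).

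Of 20 genes for TGF-beta ligands and receptors, their carriers and matrix proteases and inhibitors, 1 rose and 0 fell, with 15 above 0 (median 0.03), beside the same 0.886%, 0.0648% and 48.4% of all tested bovine genes. The gene that rose was TIMP3, an inhibitor of metalloproteases that stays bound to the matrix (0.51 ± 0.07 SE, limma adjusted p = 0.0137). Its mean over 5 lines was 1291 ± 554 (SD) with and 1872 ± 927 without IWR-1, in normalised reads. Its call ended without line 1, 4 or 11. ADAMTS1, a protease with thrombospondin motifs (0.31 ± 0.08, limma adjusted p = 0.107), SMAD7, the inhibitory SMAD induced by TGF-beta (0.21 ± 0.06, adjusted p = 0.228), and TIMP2 (0.22 ± 0.07, adjusted p = 0.241) were higher in 5 of 5 lines and were not called. MMP2 was lower in 5 of 5 lines (-0.13 ± 0.06, limma adjusted p = 0.509) and was not called either. Of all tested bovine genes 6.2% were higher and 4.92% lower in 5 of 5 lines. With the mouse share of reads in the model ADAMTS1 was at 0.47 ± 0.17 and TIMP2 at 0.14 ± 0.17 (SE). The ligand genes TGFB1, TGFB2 and TGFB3 were at 0.13, 0.03 and -0.12.

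**Figure D5:**
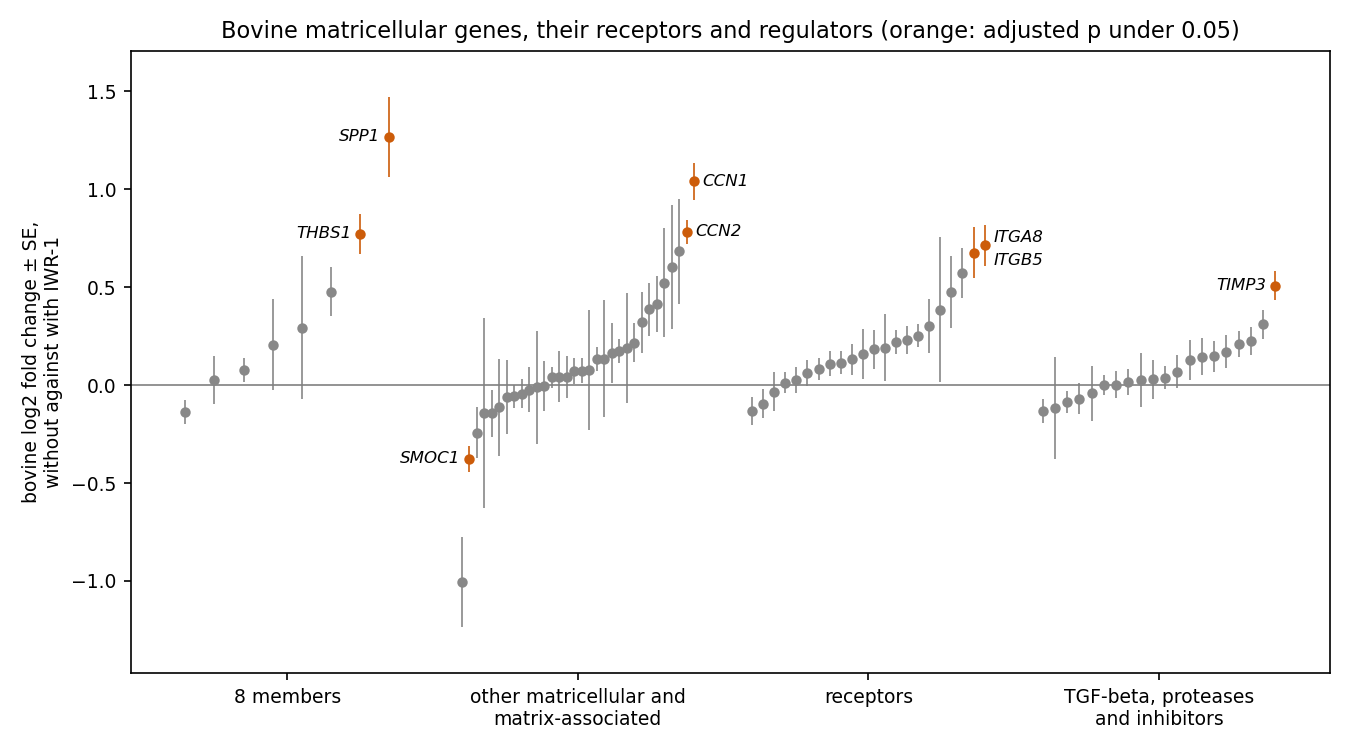
Bovine log2 fold change ± SE, without against with IWR-1, of every tested gene of the 8 members and the 3 surrounding lists, ordered by value within each list; orange marks an adjusted p under 0.05. The named orange genes are THBS1 and SPP1 among the members, CCN1, CCN2 and SMOC1 among other matricellular genes, ITGA8 and ITGB5 among receptors, and TIMP3.

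The bovine genes most like each member over the 10 wells were listed by Pearson correlation of log2 values, as a description, since the wells share lines and line 4 weighs heavily. For THBS1 they were DMRTA2 (r = 0.967), CALD1, which encodes the actin-binding protein caldesmon (0.967), and DDAH1 (0.966), with r of 0.953, 0.921 and 0.924 over the 8 wells without line 4. THBS2 was closest to COL1A2, a chain of type I collagen (0.993, or 0.830 without line 4), ADRA2A (0.991, or 0.897) and NR2F1 (0.991, or 0.853). TNC was closest to IGDCC3 (0.988, or 0.958 without line 4), ZNF469 (0.988, or 0.916) and PHC2 (0.988, or 0.929). POSTN was closest to TNFAIP1 (0.989, or 0.962 without line 4), BACH1 (0.984, or 0.905) and PLAGL1 (0.984, or 0.857). Outside line 4 these values rest on few reads per well for THBS2 (4 to 17) and POSTN (0 to 20). SPARC was closest to SULF2, an extracellular sulfatase of heparan sulfate (0.990, or 0.988 without line 4), WHRN (0.986) and ARPC5 (0.981). FN1 was closest to GIT2 (0.993), XYLT1, an enzyme of proteoglycan synthesis (0.987), and TBC1D2B (0.987). SPP1 had lower values, with PMP22 at 0.948, CDK10 at 0.937 and CBX1 at 0.921. For TGFBI the values of TIRAP (0.987), SNTB1 (0.985) and CPEB2 (0.982) dropped to 0.863, 0.807 and 0.774 without line 4.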

How the data were processed

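Poly(A) RNA of 10 wells was sequenced from NEBNext Ultra libraries and aligned once to ARS-UCD1.3 (cattle) and once to GRCm39 (mouse), per the labels. Tools named in the submitters' processing notes are featureCounts 1.5.0-p3, StringTie 1.3.3b, HISAT2 2.0.5 and fastp, with no roles given. For each species the authors deposited a normalised signal for every gene and well. Every positive value was a whole multiple of 1 step per library (100% of values, tolerance 0.01 reads), which gave back the reads; the scaling itself is not stated. The mouse data hold 2 columns that match no sample label and were not used.

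Bovine symbols came from RefSeq's ARS-UCD2.0 gene table (24660 matches for 27590 IDs), used for names only; 0 mouse IDs matched, so only the 8 mouse members are named. Limma 3.58.1 (R 4.3.3) with a trend was fitted per table on log2(value + 1), keeping genes that reached 10 normalised reads in 5 or more libraries, with line as a block and Benjamini-Hochberg adjustment; adjusted p under 0.05 was called. Fold changes on this scale understate the change of low genes. The block follows the design, since both wells of a number came from 1 line; deviations from the group means correlated within lines at 0.617 to 0.883 (bovine) and 0.488 to 0.725 (mouse). edgeR 4.0.16 and DESeq2 1.42.0 were run on the recovered reads as alternatives. The fit was tested on simulated data. Members, lists and tests were chosen with earlier results of these data known. All 8 members are named, with every called gene or the 4 smallest adjusted p of each list, and the 3 genes of highest correlation per member; other relatives are named after their values were seen. Promoter motifs were not searched, and no sequences were used here.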

Additional observations from a re-analysis of the deposited data

Results flagged for a closer look

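In 48 groups of 5 lines (each member's level in each medium and its within-line change, in each table), 10 held a line far from the other 4 by Dixon's criterion. Chance meets it in about 1 of 20 groups if values are normally distributed. Levels were taken as normalised reads without logs, where high values spread most, so that rate need not hold for them. All 10 were levels of bovine genes in line 4, and the groups of a gene share that line. With IWR-1 line 4 stood out for THBS1 (15442 normalised reads), THBS2 (1736), TNC (9334), POSTN (4097) and TGFBI (7365). Without IWR-1 it stood out for the same genes, at 23849, 2117, 12485, 3209 and 7570. No mouse level, as reads without logs, and no within-line change was set apart in this way. Log2 levels were not put to the criterion, so lines outlying on the log2 scale, in either table, were not looked for.

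SPP1 moved upward in every bovine line and downward under every line in the mouse feeders, with a mouse minus bovine log2 change of -1.98 (exact sign-flip permutation test, p = 0.0625, or 0.167 adjusted over the 8 members).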

How the results depend on the processing

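The calls rest on comparing wells within lines. With no replicate block limma called 0 bovine and 0 mouse genes (105 and 584 at an unadjusted p under 0.05), and 0 on each of the 3 lists. With each well's mouse share of reads added to the block as a covariate the counts were again 0 (456 and 687 at an unadjusted p under 0.05) and 0 on each list; that share was lower without IWR-1 in every line. The covariate is thus separated from the medium only in part, and standard errors were wider. The sizes under it were 0.76 ± 0.23 (SE, bovine) and 0.77 ± 0.23 (mouse) for THBS1 and 0.53 ± 0.37 and -0.96 ± 0.31 for SPP1. Without a filter 53 bovine and 329 mouse genes were called, and 1 receptor; SPP1 then lost its call in both tables (limma adjusted p = 0.0783 bovine and 0.0631 mouse). DESeq2 called 420 bovine genes, 4 receptors and 2 genes of the TGF-beta and protease list. With 1 line left out, 31 to 184 bovine and 269 to 936 mouse genes were called (36, 101 and 31 bovine without line 1, 4 and 11; 320, 283 and 269 mouse), and 2 to 3, 0 to 2 and 0 to 1 genes of the 3 lists.

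Signs turned for uncalled values only. With the covariate these were bovine THBS2 (-0.031) and TGFBI (0.037) and mouse Thbs2 (0.015) and Tnc (-0.025). Bovine POSTN was -0.20 with edgeR. With 1 line left out, bovine POSTN ranged from -0.13 (without line 1) to 0.47, bovine FN1 from -0.088 (line 2; also below 0 without line 1) to 0.18 and mouse Tnc from -0.11 (line 2; also below 0 without line 1) to 0.14. The mouse share change of POSTN ranged from -0.0060 (line 4) to 0.18 points, and with each species scaled to its own total those of THBS1 and SPARC were 0.20 and 0.14. The species difference ranged from -0.10 to 0.072 for THBS1 (above 0 without line 1), -0.055 to 0.040 for SPARC (line 2 or 11), -0.26 to 0.28 for POSTN (line 1) and -0.11 to 0.075 for TGFBI (line 4). The causes were not tested. POSTN and THBS2 did not pass the stricter filter in the bovine table. Counting error is largest, relative to the count, for bovine THBS2 and POSTN outside line 4.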
